A study of Mus musculus with 10 samples.

Results

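NADPH oxidases make superoxide or hydrogen peroxide, and the superoxide dismutases and catalase remove them. The 9 genes described here were 5 subunits of these oxidases (Cybb, Cyba, Ncf1, Ncf4 and Nox4) and 4 antioxidant enzymes (Sod1, Sod2, Sod3 and Cat). They were chosen by name, and every probe set annotated to exactly 1 gene symbol among them was taken, whatever its values. This gave 23 of the 34945 probe sets with 1 gene symbol, and 9 of the 18193 genes that these probe sets represent.

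Their mRNA was measured in the abdominal aorta of female mice at 4 months of age (16 weeks), on whole-genome mouse GeneChip arrays (Affymetrix), 1 for each mouse. The 6 KCASP1Tg mice carry human caspase-1 under the keratin 14 promoter, which is active in keratinocytes and not aimed at the vessel wall, and the 4 WT mice were C57BL/6 littermates. The tissue is labelled as dechorionated abdominal aorta. The methods name fewer mice than the 10 arrays deposited. All of them entered the fit, under the names KCASP1Tg 1 to KCASP1Tg 6 and WT 1 to WT 4.

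The phagocyte oxidase is a membrane enzyme of neutrophils, monocytes and macrophages. Its catalytic subunit gp91phox, from Cybb, sits in the membrane with p22phox, from Cyba, and makes no superoxide until p47phox (Ncf1), p40phox (Ncf4) and further cytosolic partners join it. In the arterial wall Nox4, expressed by smooth muscle cells and other resident cells, also binds p22phox but is active without cytosolic subunits and gives mainly hydrogen peroxide. Superoxide is converted to hydrogen peroxide by Sod1 in the cytosol, by Sod2 in mitochondria and by Sod3 outside the cell, and catalase (Cat) breaks down hydrogen peroxide in peroxisomes.

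The promoters of Cybb, Cyba, Ncf1, Nox4 and Sod1 are shown. On the brightest probe set of each gene, Cybb, Cyba and Ncf1 had their highest signals on the same array, where Nox4, Sod1, Sod2 and Sod3 had their lowest. Sod1 also carried the only antioxidant response element among the 7 genes that matched. Whether any motif bears on these signals was not tested. The windows run from 250 bases before to 50 bases after an annotated transcription start, 5′ to 3′ on the strand of the gene, and come from RefSeq on GRCm38.p6. Capitals mark matches on either strand to 4 short motifs: the GC box GGGCGG, the CCAAT box CCAAT, the ETS core GAGGAA, to which the myeloid factor PU.1 can bind, and the antioxidant response element TGACNNNGC, to which NRF2 can bind.
Cybb, chrX:9469275-9469574, minus strand: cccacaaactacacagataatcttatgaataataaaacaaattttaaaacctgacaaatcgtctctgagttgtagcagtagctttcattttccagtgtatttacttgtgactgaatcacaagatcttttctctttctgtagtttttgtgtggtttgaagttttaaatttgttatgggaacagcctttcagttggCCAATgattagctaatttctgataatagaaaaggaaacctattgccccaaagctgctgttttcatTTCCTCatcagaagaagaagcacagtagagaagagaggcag
Cyba, chr8:122432891-122433190, minus strand: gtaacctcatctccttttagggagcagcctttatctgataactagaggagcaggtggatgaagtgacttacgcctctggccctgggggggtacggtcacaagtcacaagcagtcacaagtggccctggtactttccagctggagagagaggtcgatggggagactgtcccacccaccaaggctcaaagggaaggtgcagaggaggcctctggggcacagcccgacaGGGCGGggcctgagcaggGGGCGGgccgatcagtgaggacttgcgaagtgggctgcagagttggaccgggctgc
Ncf1, chr5:134229576-134229875, minus strand: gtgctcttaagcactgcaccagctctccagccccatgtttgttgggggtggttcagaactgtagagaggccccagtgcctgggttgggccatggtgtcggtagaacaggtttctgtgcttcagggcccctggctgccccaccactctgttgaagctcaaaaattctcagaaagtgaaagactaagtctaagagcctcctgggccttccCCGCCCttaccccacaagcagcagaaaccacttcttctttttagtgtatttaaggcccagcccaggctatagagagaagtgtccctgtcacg
Nox4, chr7:87246399-87246698, plus strand: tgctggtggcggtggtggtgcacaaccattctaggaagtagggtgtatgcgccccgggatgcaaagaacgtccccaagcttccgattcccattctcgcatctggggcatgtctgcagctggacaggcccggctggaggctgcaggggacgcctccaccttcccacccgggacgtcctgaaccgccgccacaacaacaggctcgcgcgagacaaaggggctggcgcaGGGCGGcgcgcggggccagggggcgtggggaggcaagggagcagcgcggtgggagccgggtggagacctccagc
Sod1, chr16:90220512-90220811, plus strand: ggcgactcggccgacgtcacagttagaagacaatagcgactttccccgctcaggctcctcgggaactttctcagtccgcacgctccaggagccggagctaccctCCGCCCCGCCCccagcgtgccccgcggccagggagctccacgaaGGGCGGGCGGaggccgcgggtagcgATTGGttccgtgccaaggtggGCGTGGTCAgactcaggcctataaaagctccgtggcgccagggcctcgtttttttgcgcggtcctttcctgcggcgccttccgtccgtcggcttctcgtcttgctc

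The Cybb window was the poorest in G and C of the 7, at 35.3%, and 3.98% of all 32851 promoters of this length had a lower value. It held 1 CCAAT box 56 bases before the start and 1 ETS core on the opposite strand, and no GC box. Cyba (60.7% G and C) held 2 GC boxes, and Ncf1 (54%) and Nox4 (68.3%) held 1 each. Sod1 (66.7%) held 4 GC boxes, which form 2 overlapping pairs, 1 CCAAT box and 1 antioxidant response element on the opposite strand, 56 bases before the start. Of the windows not printed, Sod2 held 4 GC boxes, 1 CCAAT box and 1 ETS core, and Cat held 1 GC box, 4 CCAAT boxes and 1 ETS core that overlaps a CCAAT box. Among all promoters 35.7% held a GC box, 37.4% a CCAAT box, 28.3% the ETS core and 12.4% the antioxidant response element. The windows of Cybb and Nox4 lie at a start inside the annotated span of the gene, not at its outer end. A match describes the letters only.

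Signals are MAS5.0 intensities on a linear scale that were set to a trimmed mean of 500 on each array, and differences between genotypes are on the log2 scale, KCASP1Tg minus WT. The limma test was run on probe sets that reached a signal of 100 on 4 or more arrays, which were 26242 in all and 22 of the 23 of these genes. The other one, the Sod1 probe set 1447761_x_at, was below 100 on all 10 arrays, with 11.4 ± 8.27 in KCASP1Tg and 6.81 ± 5.21 in WT (SD, n = 6 and 4).

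The arrays also held RNA of cells other than those of the vessel wall. Of 7 smooth muscle markers all 7 were measured, and their summed signal was 33943 to 89441 in KCASP1Tg and 77545 to 88559 in WT, lowest on KCASP1Tg 4. On KCASP1Tg 4 the neutrophil, macrophage and B and T cell sums were the highest of all arrays (50610, 59234 and 11510), whereas the highest among the other KCASP1Tg arrays were 12653, 38525 and 1591. Brown adipocyte markers summed to 25377 to 91887 in KCASP1Tg and 41491 to 111954 in WT, highest on WT 4. Heart muscle markers were bright on KCASP1Tg 1 (30406), KCASP1Tg 2 (17255) and WT 4 (59655), and liver markers on WT 1 (140634) and WT 3 (56781). The differences of the 9 genes are given with and without these arrays where they moved.

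None of the 9 genes passed the test. Of their 22 tested probe sets, 0 were called higher and 0 lower in KCASP1Tg by limma at an adjusted p under 0.05, where 0.0686% of all tested probe sets were called higher and 0% lower. The smallest adjusted p among them was 0.495. The adjusted exact Mann-Whitney test called 0 as well. Before adjustment, 7 of the 22 were higher and 0 lower at a p under 0.05, against 4.52% and 3.42% of all tested probe sets. In 3 of the 22 every KCASP1Tg mouse lay above every WT mouse, against 1.98% of all, and in 0 of the 22 every KCASP1Tg mouse lay below, against 0.949%. The 7 were probe sets of Cybb, Ncf1, Ncf4 and Sod1, and the 3 were of Cyba and Ncf1. The Ncf1 probe sets 1451767_at and 1425609_at, both among the 7 and the first also among the 3, reached 100 on KCASP1Tg arrays only, so they entered the test through the group in which they were brighter. Of the 20 probe sets that reached 100 on an array of each genotype, a limit set after the values were seen, 5 were higher at an unadjusted p under 0.05 (4.16% of all 26099 such probe sets) and 2 did not overlap (1.75% of all).

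The phagocyte oxidase genes and the remaining genes had different values. The 8 probe sets of Cybb, Cyba, Ncf1 and Ncf4 had positive differences and were highest on KCASP1Tg 4. The 6 of them that reached 100 on an array of each genotype lay between 0.78 and 1.28 with a median of 1.07, and the other 2, both of Ncf1, had the highest values of the 8, up to 1.47. The 14 tested probe sets of Nox4, the superoxide dismutases and Cat had differences between -0.22 and 0.30 with a median of 0.00. Of them 10 were lowest on KCASP1Tg 4, and 1, of Sod1, was highest there. The median over the 22 was 0.07, and over all tested probe sets it was 0.00. Probe sets of 1 gene measure the same transcripts and are not separate evidence.

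**Figure D1:**
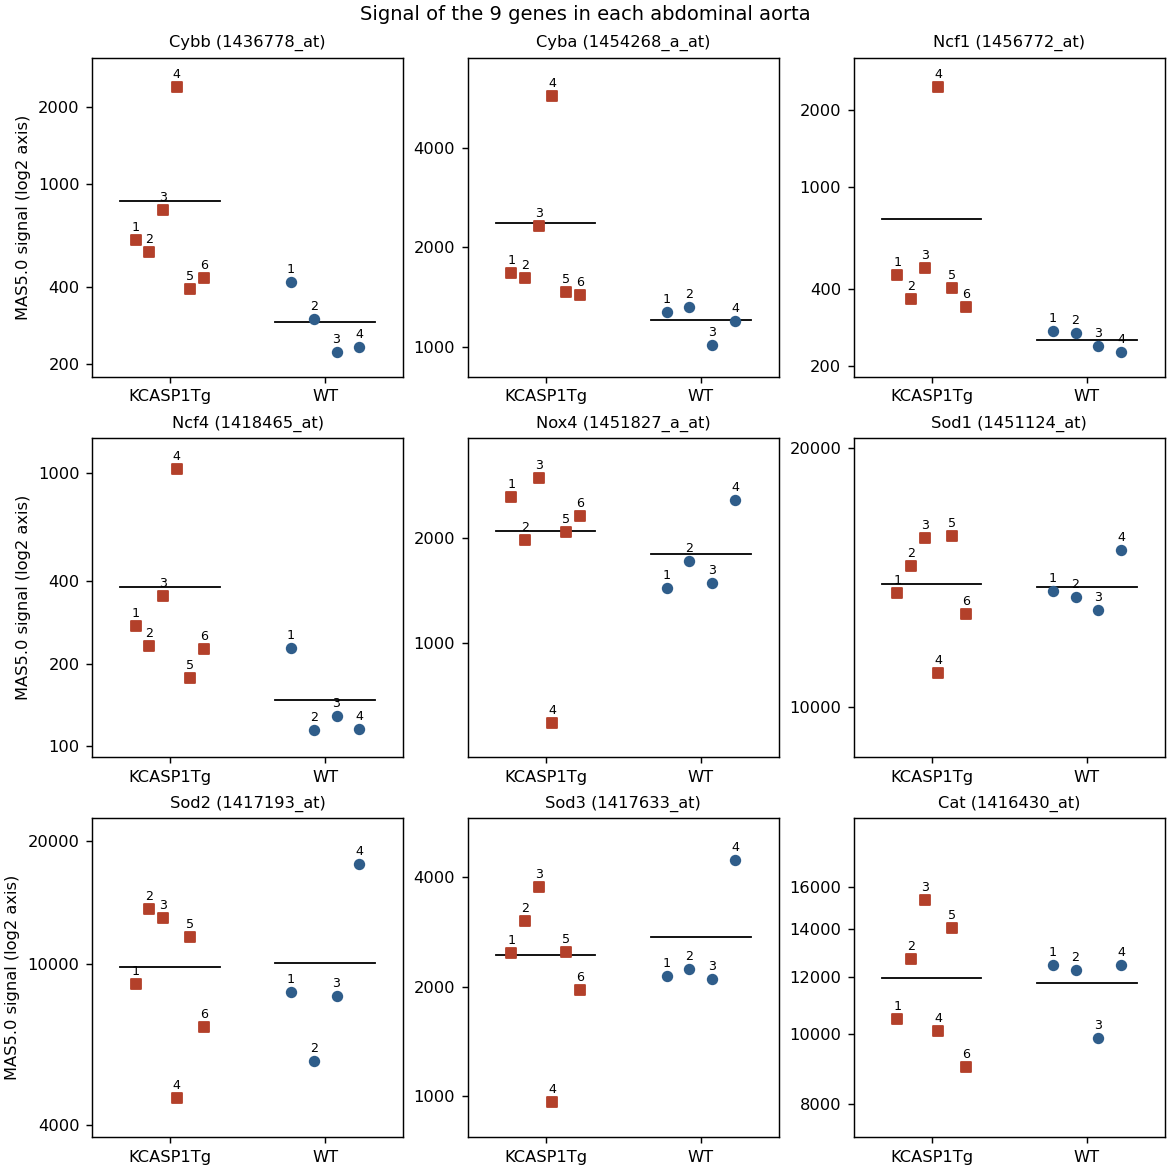
Signal of the leading probe set of each of the 9 genes (vertical log2 axis, MAS5.0 signal), with 1 point per mouse, KCASP1Tg as squares and WT as circles, numbered as in the text, and a line at each group mean (n = 6 and 4). KCASP1Tg 4 is the highest point for Cybb, Cyba, Ncf1 and Ncf4 and the lowest for Nox4, Sod1, Sod2 and Sod3.

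Cybb, the catalytic subunit (gene at chrX:9435252-9487766), had a signal of 390 to 2374 in KCASP1Tg with a median of 576, against 416, 299, 223 and 232 in WT 1 to WT 4. Of the 6 KCASP1Tg mice, 5 lay above all WT mice, and KCASP1Tg 5 (390) lay below WT 1 (416), so the groups overlapped. The means were 857 ± 757 in KCASP1Tg and 292 ± 89.1 in WT (SD, n = 6 and 4). The log2 difference was 1.28 (SE 0.45, 95% interval 0.27 to 2.29), with an unadjusted limma p of 0.0175 and an adjusted p = 0.495. The other probe sets of the gene, 1422978_at and 1436779_at, had differences of 1.02 and 0.81. In whole tissue, more cells of a type and more mRNA per cell cannot be told apart, here and for the genes that follow.

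Cyba, the p22phox that Cybb and Nox4 share (chr8:122424771-122432940), ranged between 1433 and 5734 in KCASP1Tg with a median of 1647, against 1278, 1320, 1016 and 1202 in WT. Every KCASP1Tg mouse lay above every WT mouse, and KCASP1Tg 4 lay far above the other KCASP1Tg mice, which reached 2318. KCASP1Tg exceeded WT by 0.78 on the log2 scale (SE 0.36, 95% interval -0.01 to 1.57, limma adjusted p = 0.636). The two-sided exact Mann-Whitney p was 0.00952, the smallest that 6 against 4 arrays allow, before adjustment. By limma the unadjusted p was 0.0521.

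Ncf1, the p47phox that brings the cytosolic subunits to the membrane (chr5:134220053-134229628), had 3 probe sets. The leading one, 1456772_at, gave 339 to 2454 in KCASP1Tg with a median of 427, against 274, 269, 240 and 227 in WT. Again every KCASP1Tg mouse lay above every WT mouse, and the WT mice differed little among themselves. Here the difference was 1.12 on the log2 scale (SE 0.49, 95% interval 0.03 to 2.20, limma adjusted p = 0.608), with an exact Mann-Whitney p of 0.00952 before adjustment. The dimmer probe sets were below 100 on every WT array and add no support. One of them, 1451767_at, gave 91.9 to 1142 in KCASP1Tg and 60.7 to 84 in WT, with a difference of 1.47, and the other, 1425609_at, gave 55.6 to 572 in KCASP1Tg and 42.6 to 77.8 in WT, with a difference of 1.36.

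Ncf4, the p40phox that binds membrane lipids of the phagosome (chr15:78244164-78262582), had a signal of 177 to 1028 in KCASP1Tg with a median of 253, against 229, 114, 129 and 115 in WT. WT 1 lay at the level of several KCASP1Tg mice, so the groups overlapped, and 4 of 6 KCASP1Tg mice were above all WT mice. A log2 difference of 1.15 was estimated (SE 0.44, 95% interval 0.17 to 2.14, limma adjusted p = 0.536).

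KCASP1Tg 4 was the highest array for all 4 genes. Its signal was 4.28 times the mean of the other KCASP1Tg mice for Cybb, 3.37 times for Cyba, 6.01 times for Ncf1 and 4.07 times for Ncf4. Without this array the log2 differences became 0.92 (SE 0.25) for Cybb, 0.48 (SE 0.16) for Cyba, 0.69 (SE 0.13) for Ncf1 and 0.81 for Ncf4. Both the differences and their errors were smaller, and the limma adjusted p was 0.284 for Cybb, 0.395 for Cyba, 0.0878 for Ncf1 and 0.379 for Ncf4. Among the 21 probe sets of the 9 genes then tested, 0 were called and 8 had an unadjusted limma p under 0.05, all 8 higher in KCASP1Tg, where 4.98% of all tested probe sets were higher and 3.41% lower. Without the Ncf1 probe set that was below 100 in WT, 7 of 20 were higher, against 4.69% of all probe sets with that limit. Without WT 1 and WT 3, the arrays with liver transcripts, the differences were 1.38 for Cybb, 0.71 for Cyba, 1.15 for Ncf1 and 1.45 for Ncf4, and without the arrays with heart muscle transcripts they were 1.31, 0.94, 1.28 and 1.21 for the same genes, with no call.

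**Figure D2:**
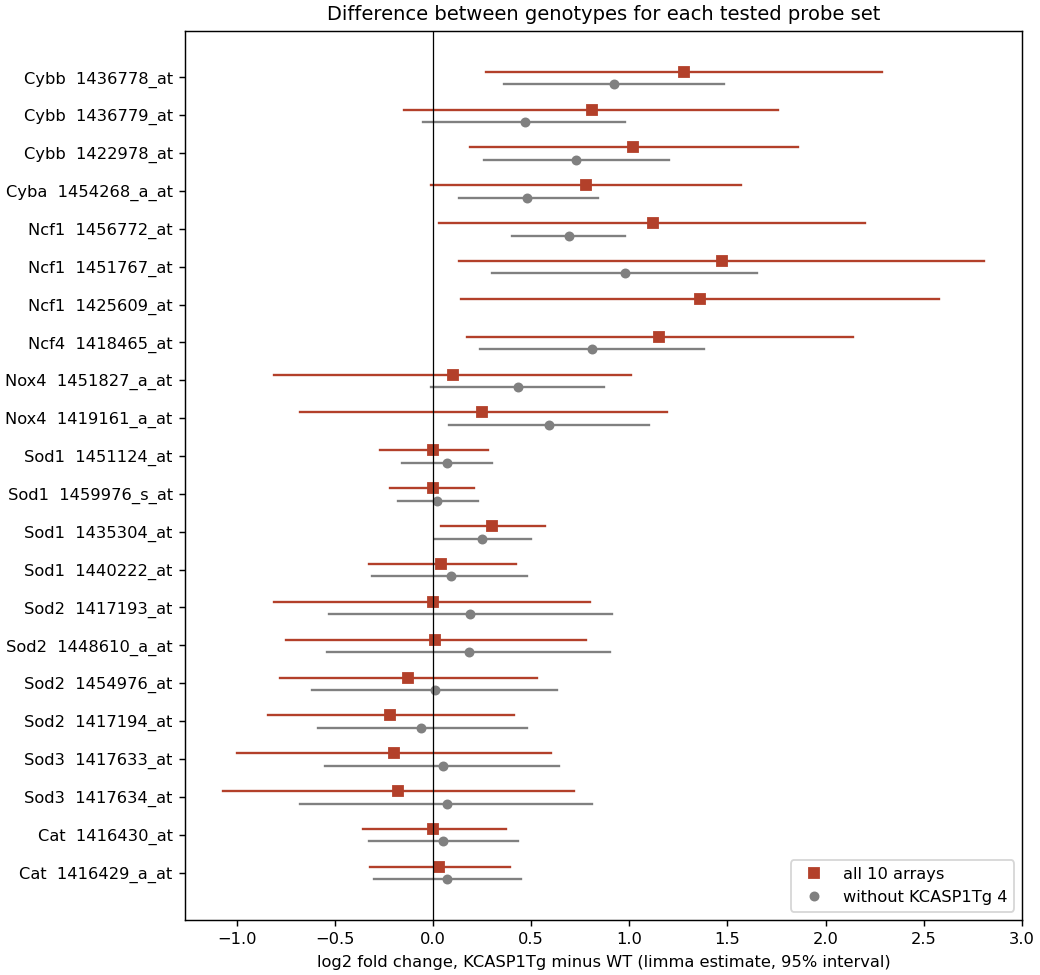
Log2 difference between genotypes (horizontal axis, KCASP1Tg minus WT, limma estimate with 95% interval) for each tested probe set, over all 10 arrays (squares) and without KCASP1Tg 4 (circles). The 8 phagocyte oxidase probe sets lie between 0.78 and 1.47 over all arrays, including the Ncf1 probe sets that were below 100 on every WT array, and for each one tested in both fits the value is smaller and the interval narrower without KCASP1Tg 4.

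Nox4, the oxidase of resident vascular cells (chr7:87244430-87398710), had a signal of 587 to 2978 in KCASP1Tg with a median of 2198, against 1440, 1712, 1480 and 2571 in WT. KCASP1Tg 4 was the lowest of all 10 arrays, at 0.246 times the mean of the other KCASP1Tg mice, and the other 5 KCASP1Tg mice, at 1967 or more, all exceeded WT 1, WT 2 and WT 3. Over all arrays the log2 difference was 0.10 (SE 0.41, 95% interval -0.81 to 1.01, limma adjusted p = 0.992). Without KCASP1Tg 4 it was 0.43 (95% interval -0.01 to 0.87, limma adjusted p = 0.606). Without both KCASP1Tg 4 and WT 4 it was 0.62, with an unadjusted limma p of 0.00347 and an adjusted p = 0.205. That pair was chosen after the data were seen and holds the lowest KCASP1Tg and the highest WT value. The small unadjusted p therefore comes in part from the choice and gives no support. The second probe set, 1419161_a_at, gave 0.25 over all arrays and 0.59 without KCASP1Tg 4. Without WT 1 and WT 3 the leading probe set gave -0.16, so the sign of the Nox4 difference depended on which arrays were kept.

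Sod1, the cytosolic dismutase (chr16:90220762-90226333), had a signal of 10949 to 15806 in KCASP1Tg with a median of 14079, against 13637, 13431, 12960 and 15225 in WT. The groups overlapped widely, KCASP1Tg 4 was the lowest of all arrays, and the means were 13914 ± 1868 and 13813 ± 983 (SD, n = 6 and 4). The log2 difference was 0.00 (SE 0.12, 95% interval -0.27 to 0.28). The probe sets of Sod1 did not give 1 value. While 1459976_s_at also had a difference of 0.00 and 1440222_at one of 0.04, the dimmer 1435304_at gave 445 to 620 in KCASP1Tg with a median of 522, against 401, 470, 426 and 387 in WT. Here 4 of 6 KCASP1Tg mice lay above all WT mice, and the difference was 0.30 (SE 0.12, unadjusted limma p of 0.0302, adjusted p = 0.559). KCASP1Tg 4, at 620, was the highest of all arrays for this probe set, whereas it was the lowest for the leading one.

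Sod2, the mitochondrial dismutase (chr17:13007839-13018119), had a signal of 4676 to 13624 in KCASP1Tg with a median of 10276, against 8517, 5762, 8328 and 17558 in WT. KCASP1Tg 4 was the lowest and WT 4 the highest of all 10 arrays, and the groups overlapped. The log2 difference was 0.00 (SE 0.36, 95% interval -0.81 to 0.80, limma adjusted p = 1). The interval was wide and holds changes of 0.80 in either direction. The other 3 probe sets gave 0.01, -0.13 and -0.22. Without KCASP1Tg 4 and WT 4 the leading probe set gave 0.50, with an unadjusted limma p of 0.0734. Leaving out this pair, the lowest and the highest array for Sod2, was chosen after the data were seen and gives no support.

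Sod3, the extracellular dismutase held in the arterial wall (chr5:52363804-52369738), had a signal of 964 to 3753 in KCASP1Tg with a median of 2483, against 2138, 2241, 2102 and 4474 in WT. The pattern over the arrays was that of Sod2, with KCASP1Tg 4 lowest and WT 4 highest, while WT 1, WT 2 and WT 3 lay close together. On the log2 scale the difference was -0.20 (SE 0.36, upper bound of the 95% interval 0.60, limma adjusted p = 0.961), and -0.18 for the second probe set. For the leading probe set it was 0.05 without KCASP1Tg 4, 0.31 without KCASP1Tg 4 and WT 4, and -0.49 without WT 1 and WT 3. Both pairs of arrays were chosen after the data were seen.

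Cat, the peroxisomal catalase (chr2:103453904-103485153), had a signal of 9004 to 15349 in KCASP1Tg with a median of 11613, against 12492, 12295, 9868 and 12466 in WT. KCASP1Tg 3 was highest and KCASP1Tg 6 lowest, and the groups overlapped. Cat had a log2 difference of 0.00 (SE 0.17, 95% interval -0.36 to 0.37, limma adjusted p = 1), and 0.03 for the second probe set. Without KCASP1Tg 4 the values of the probe sets were 0.05 and 0.07, so Cat moved little with this array.

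The genes differed in how much they varied between mice of 1 genotype. The pooled SD of log2 signals within genotypes was 0.79 for Cybb, 0.61 for Cyba, 0.86 for Ncf1, 0.77 for Ncf4, 0.71 for Nox4, and 0.63 for Sod2 and Sod3. Each of these values exceeded that of at least 88.1% of all tested probe sets. Sod1 (0.17) and Cat (0.26) varied less, above 17.3% and 42.4% of tested probe sets. The SD of Ncf1 was 1.08 in KCASP1Tg and 0.13 in WT, and that of Cyba was 0.77 in KCASP1Tg and 0.17 in WT.

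The 4 phagocyte oxidase genes moved together over the 10 arrays. Pearson's r of their log2 signals was between 0.94 and 0.98 for all pairs, and between 0.82 and 0.95 without KCASP1Tg 4. The pairs Cybb with Ncf4 and Cyba with Ncf1 had the highest r, 0.98 each (rho 0.94 and 0.96). Without the 2 arrays farthest from the median of Cybb the first pair had 0.96. Without those farthest from the median of Cyba the second had 0.89. Between these genes and Nox4, r was -0.53 to -0.67 over 10 arrays but 0.45 to 0.71 without KCASP1Tg 4, and rho over all arrays was 0.05 to 0.20, so the negative values rested on that array. Among the dismutases r was 0.87 to 0.90, and Sod1 and Cat had an r of 0.80 (0.87 without KCASP1Tg 4). These values describe arrays that share genotype and the admixture of other tissues, and no test was made on them.

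**Figure D3:**
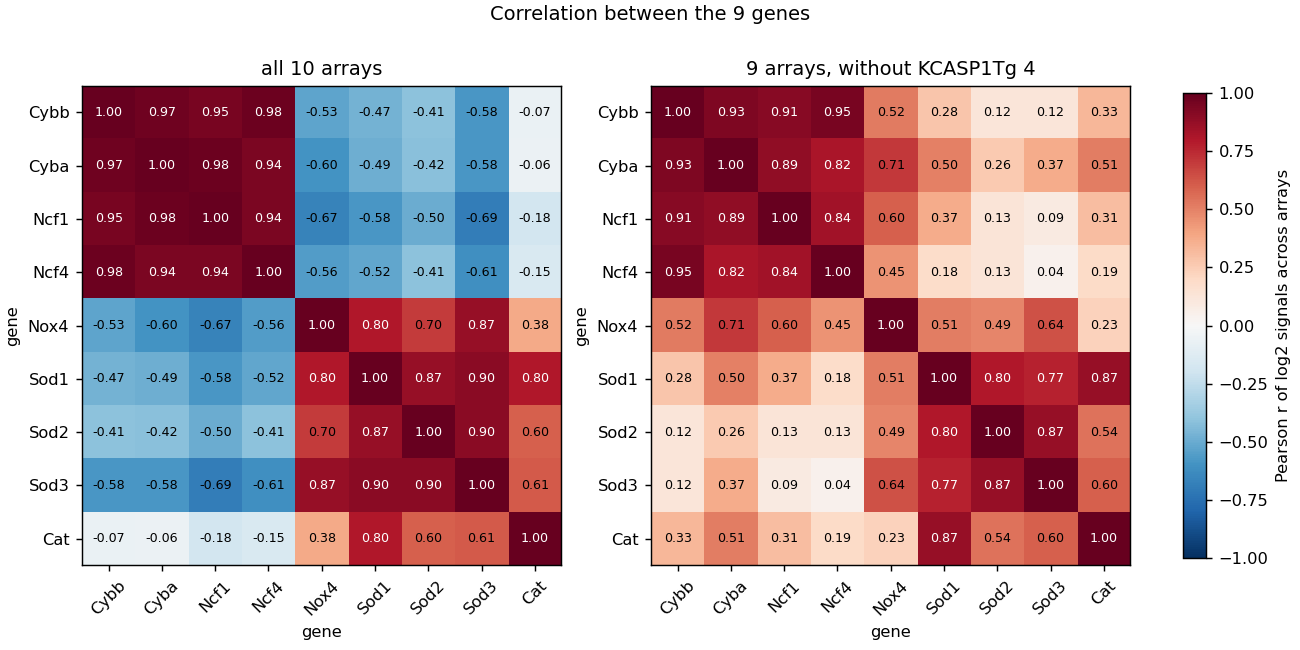
Pearson's r of log2 signals between the leading probe sets of the 9 genes, over all 10 arrays (left) and over 9 arrays without KCASP1Tg 4 (right), with r written in each square. The phagocyte oxidase genes stay between 0.82 and 0.95 on the right, whereas their r with Nox4 is negative on the left and positive on the right.

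Markers of other cells moved with several of these genes, and their part in the results was not tested. Of 11 tested macrophage and monocyte markers, 0 were called and 7 had an unadjusted limma p under 0.05. All 7 were higher in KCASP1Tg, against 4.52% of all tested probe sets. The 11 markers had a median log2 difference of 0.76, with sums of 19386 to 59234 in KCASP1Tg and 14270 to 21284 in WT. Cybb had an r of 0.95 with the mean of these markers (0.90 without KCASP1Tg 4), Cyba 0.92 (0.92), Ncf1 0.89 (0.87) and Ncf4 0.92 (0.83). Over all 10 arrays the r of these genes with the B and T cell mean was no lower, at 0.96 for Cybb, 0.93 for Cyba, 0.94 for Ncf1 and 0.97 for Ncf4. Without KCASP1Tg 4 it was lower than with the macrophage and monocyte mean for Cybb (0.88), Cyba (0.70) and Ncf1 (0.74). For Ncf4 (0.92) it was higher. Of 7 tested neutrophil markers, 2 were called higher (S100a8 and S100a9), against 0.0686% of all tested probe sets. The median was 3.38, with sums of 6148 to 50610 in KCASP1Tg and 709 to 912 in WT. Csf3r, Mpo, Ltf and Camp were below 100 on every WT array, so they entered the test through the group in which they were brighter. The median is the value of Ltf, and the mean of the list used below includes all of these genes. Among the granule genes of neutrophils Camp and Ltf had differences of 4.44 and 3.38 that were not called (limma adjusted p = 0.125 and 0.215), and Elane, neutrophil elastase, was above 100 on KCASP1Tg 4 alone. With the neutrophil mean r was 0.91 for Cybb (0.82 without KCASP1Tg 4), 0.89 for Cyba (0.83), 0.90 for Ncf1 (0.94) and 0.88 for Ncf4 (0.76). The B and T cell markers summed to 617 to 11510 in KCASP1Tg and 570 to 1084 in WT, with 0 of 5 tested called. Of 2 tested erythroid markers, Slc4a1, an anion exchanger of red cells, was called higher (3.47, limma adjusted p = 0.00768). Slc4a1 was at most 57.1 in WT and reached 100 on KCASP1Tg arrays only. It thus entered the test through the group in which it was brighter. Alas2 had a difference of 2.70 (limma adjusted p = 0.145). Hba-a1 and Epb42 were below 100 on all 10 arrays and were not tested. Only probe sets with exactly 1 gene symbol were read, and Hbb-bt had none, so the level of globin mRNA is not shown by these values. The erythroid sums were 850 to 7072 in KCASP1Tg, lowest on KCASP1Tg 4, and 393 to 869 in WT. Of 6 fibroblast markers 0 were called and 3 were lower at an unadjusted limma p under 0.05, against 3.42% of all tested probe sets. Their median was -0.54, with sums of 34357 to 63526 in KCASP1Tg and 53569 to 60105 in WT.

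Nox4 and the antioxidant enzymes followed other lists. Nox4 had an r of 0.86 with the smooth muscle mean, which was 0.29 without KCASP1Tg 4, and of 0.79 with the adipocyte mean, 0.71 without it. Sod2 had an r of 0.91 with the mean of the brown adipocyte markers (0.86 without KCASP1Tg 4) and of 0.72 with the heart muscle mean (0.67). Sod3 had 0.84 (0.73) and 0.68 (0.68) with the same lists. Sod1 had an r of 0.88 with the adipocyte mean (0.82) and Cat one of 0.78 (0.77). Without KCASP1Tg 4 the phagocyte oxidase genes also had a positive r with the adipocyte mean. It was 0.59 for Cybb, 0.80 for Cyba, 0.70 for Ncf1 and 0.41 for Ncf4. Likewise, r with the macrophage and monocyte mean was then 0.53 for Nox4, 0.63 for Sod1, 0.42 for Sod2, 0.37 for Sod3 and 0.64 for Cat. The contrast between the lists was thus weaker without that array. WT 4, which was highest for Sod2 and Sod3, was also highest for brown adipocyte and heart muscle markers. Cat, which is abundant in liver, was at 12492 on WT 1, the highest WT array for it and for liver markers, and at 9868 on WT 3, the lowest WT array for it, and its r with the liver mean was -0.14. The part of liver RNA in its signal was not tested.

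**Figure D4:**
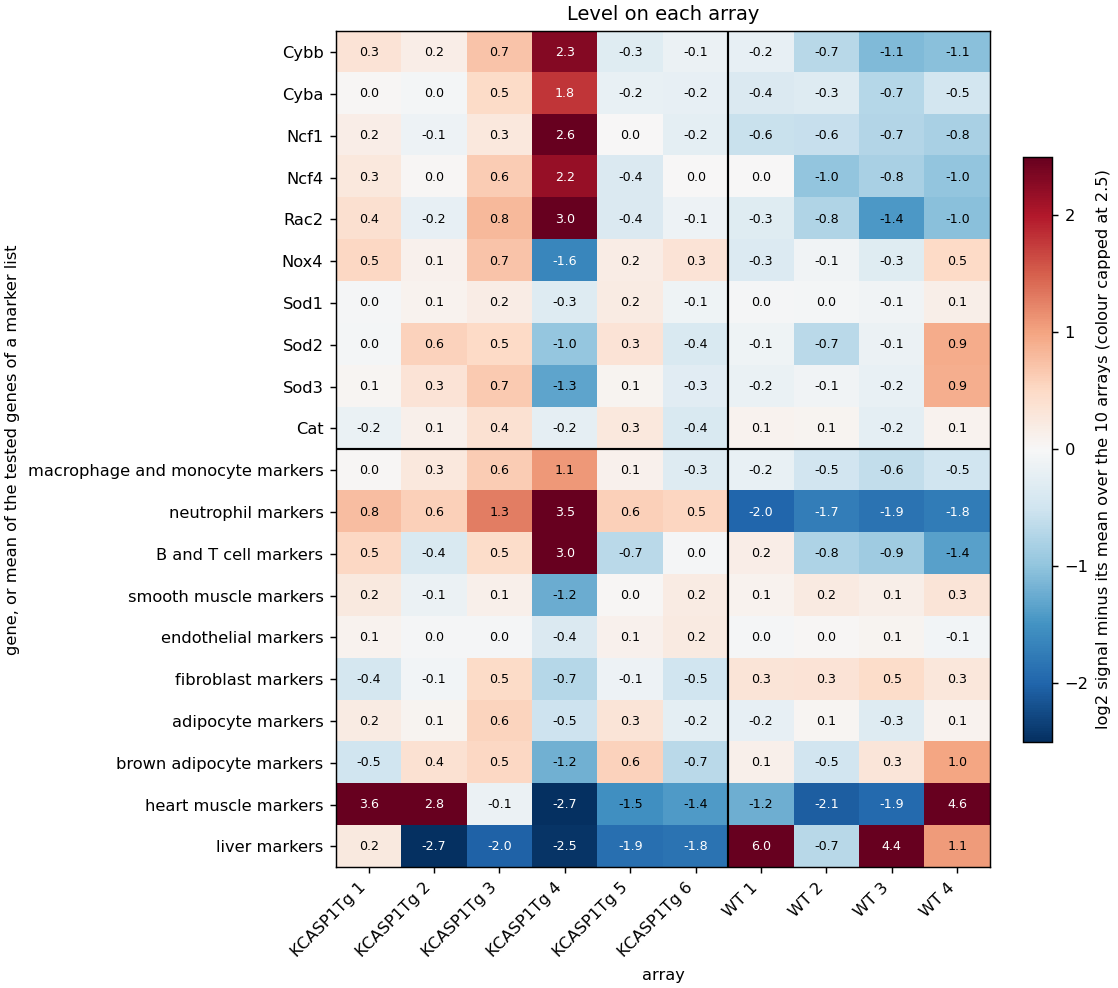
Log2 signal minus its mean over the 10 arrays for the 9 genes, Rac2 and the mean of each marker list (rows), by array (columns, KCASP1Tg left and WT right), with the value written in each square and colour capped at 2.5 in either direction. KCASP1Tg 4 is at 2.30 for Cybb, 2.61 for Ncf1 and 3.54 for neutrophil markers and at -1.63 for Nox4 and -1.24 for smooth muscle markers, and WT 4 is at 0.93 for Sod2 and 0.99 for brown adipocyte markers.

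For each gene the 3 other genes with the highest r over the 10 arrays were listed, out of all tested genes, so the values are high by choice. Cybb was most like Lyz1, a lysozyme (r = 0.991), Napsa (0.990) and Rac2, the small GTPase that activates the phagocyte oxidase (0.989). Cyba was most like Sting1, a sensor of cyclic dinucleotides (0.997), Ripor2 (0.987) and the leukocyte tetraspanin Cd53 (0.987). Ncf1 was most like Arhgdib, Cytip and D17H6S56E-5, each at 0.993, and Ncf4 like Lcp1, an actin-bundling protein of leukocytes (0.984), Cybb (0.983) and Cd52 (0.981). Without KCASP1Tg 4 these 12 values were between 0.940 and 0.984.

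Nox4 was most like Ptgis, prostacyclin synthase (0.992), Osr1 (0.984) and Slmap (0.982). Sod2 was most like genes of mitochondrial metabolism, namely Ndufa12 of respiratory complex I (0.996), Cox6a1 of cytochrome oxidase (0.996) and Dlst of the citric acid cycle (0.995). Sod1 was most like Fabp4, the fatty acid binding protein of adipocytes (0.980), Amigo1 (0.979) and Rab34 (0.976). Sod3 was most like Iars2, a mitochondrial tRNA synthetase (0.982), Pofut2 (0.978) and Fahd2a (0.976), and Cat like Cab39l (0.970), Adam12 (0.964) and the liver X receptor Nr1h3 (0.963). Without KCASP1Tg 4 the values of these 15 genes were between 0.933 and 0.995.

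Other genes of oxidant production and removal were taken from 6 lists of 64 genes, of which 47 were tested. By limma 0 were called higher and 0 lower, the smallest adjusted p was 0.402, and before adjustment 5 were higher and 0 lower at a p under 0.05, against 4.52% and 3.42% of all tested probe sets. The exact Mann-Whitney test called 0 after adjustment. In 1 of the 47 (Glrx) every KCASP1Tg mouse lay above every WT mouse, a share near the 1.98% of all tested probe sets, and the median difference was 0.03.

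The 5 genes at an unadjusted p under 0.05 had different functions. Rac2 had a signal of 355 to 3682 in KCASP1Tg with a median of 515, against 368, 270, 168 and 221 in WT. It overlapped by KCASP1Tg 5 and was highest on KCASP1Tg 4, as the phagocyte oxidase subunits were, with a difference of 1.48 (SE 0.59, limma adjusted p = 0.559), and a smaller one without that array (adjusted p = 0.334). Hmox1, heme oxygenase 1, an enzyme induced by NRF2, gave 96.9 to 459 in KCASP1Tg with a median of 221, against 172, 68.4, 148 and 58.7 in WT. Its difference was 1.13 (SE 0.45, limma adjusted p = 0.559) with overlapping groups, and 0.92 without KCASP1Tg 4.

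Glrx, a glutaredoxin, gave 947 to 1495 in KCASP1Tg with a median of 1105, against 776, 873, 772 and 916 in WT. Its groups did not overlap and KCASP1Tg 4, at 1164, did not stand apart, with a difference of 0.44 (SE 0.14, limma adjusted p = 0.422). Gclm, the regulatory subunit of the first enzyme of glutathione synthesis, gave 1372 to 2211 in KCASP1Tg with a median of 2004, against 1594, 1382, 1477 and 1287 in WT. All KCASP1Tg mice but KCASP1Tg 4 lay above all WT mice, and the difference was 0.43 (SE 0.14, limma adjusted p = 0.464), and 0.53 without that array (adjusted p = 0.0808). Xdh, xanthine dehydrogenase, a source of superoxide in its oxidase form, gave 2329 to 3479 in KCASP1Tg with a median of 2808, against 2341, 1964, 2137 and 1903 in WT. KCASP1Tg 6 lay just below WT 1 and the other 5 above all WT mice, with a difference of 0.45 (SE 0.14, limma adjusted p = 0.402).

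Apart from Mpo, the myeloperoxidase of neutrophils (1.01, limma adjusted p = 0.793), which is named after its values were seen and reached 100 on KCASP1Tg arrays only, the remaining listed genes were closer to 0. Rap1a, found with the oxidase in the phagocyte membrane, had a difference of 0.17. The peroxidases Gpx7 and Gpx8 had differences of -0.24 and -0.38, and the 8 tested peroxide-removing enzymes had a median of -0.05. The chaperone and copper transport list had a median of -0.07, with -0.38 for Sco1 and -0.20 for the copper importer Slc31a1. Keap1, which holds NRF2 back, had 0.13, and Nos3, the endothelial nitric oxide synthase, -0.29 (limma adjusted p = 0.779).

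**Figure D5:**
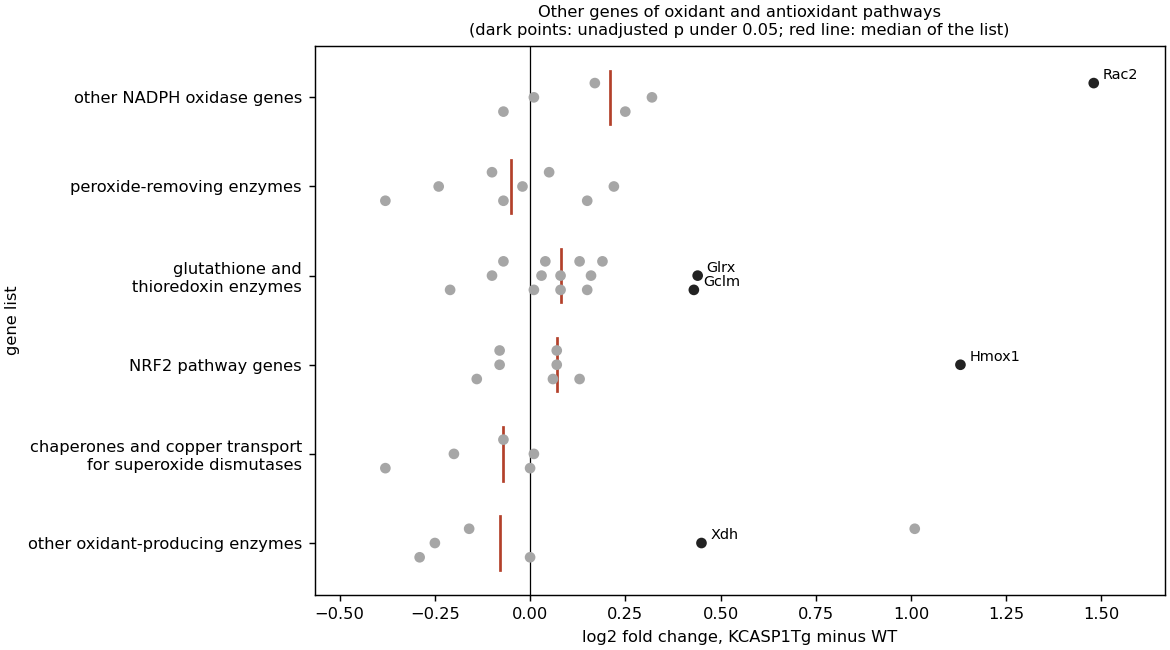
Log2 difference between genotypes (horizontal axis, KCASP1Tg minus WT) for each of the 47 tested genes of the 6 lists (rows), with 1 point per gene, dark where the unadjusted limma p was under 0.05, and a line at the median of each list. The 5 dark points, Rac2, Hmox1, Xdh, Glrx and Gclm, all lie above 0, and none passed after adjustment.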

How the data were processed

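Total RNA of the abdominal aorta was hybridised to mouse GeneChip arrays. The authors used MAS5.0 to summarise the probes of a probe set as 1 signal intensity, with global scaling of every array to a target of 500. The table they deposited holds these intensities, not yet on a log scale. The mean after trimming 2% of probe sets at each end was 500.0 on all 10 arrays, and the median was 128.6 to 155.9 in KCASP1Tg and 128.6 to 142.8 in WT. The table holds 45101 probe sets, of which 64 controls were left out. Of the others, 34945 had 1 gene symbol in the platform annotation, 932 several and 9160 none.

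As in the methods, a floor of 1 was put under the signals before they were turned into log2 values. Probe sets that reached a signal of 100 on 4 or more arrays entered limma 3.58.1 in R 4.3.3 (genotype as the term in the model, two-sided, Benjamini-Hochberg adjustment over all 26242 tested, called at an adjusted p under 0.05). The methods name a Mann-Whitney test, and its exact form was run beside it. A gene is represented by its leading probe set, the one with the highest mean log2 signal. Tables and figures were made in Python 3.11.15 with numpy 2.4.6, pandas 2.3.3, scipy 1.17.1 and matplotlib 3.10.9. The steps were tested on simulated data.

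The 9 genes, the pathway and marker lists and the tests were chosen with earlier results of these data known. All 9 genes are named with their probe sets, with the 3 genes of highest r for each, and from each pathway list the 2 genes with the smallest p. Alternatives were another floor, a pseudocount, other signal filters, array weights, an intensity trend, median centring, quantile normalization, the replicate number as a block, other probe sets, and arrays left out. No scan date or other batch is given in the sources used here. Precision is limited by how many arrays there are. The limma p-values set a difference between genotypes against the spread between arrays within a genotype. That spread includes the uneven admixture of other tissues. Detection calls were not used here, and the methods and the labels differ in the RNA amount used for labelling.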

Additional observations from a re-analysis of the deposited data

Results flagged for a closer look

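In 11 of the 70 groups of signals examined, 1 array lay farther from the others of its genotype than Dixon's 95% critical value for a group of its size. Chance gives about 1 in 20 such groups, and probe sets and genes on the same arrays are not independent. The value given is the gap to the nearest other array divided by the range of the group, both taken on log2 signals, while the signals beside it are linear.

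KCASP1Tg 4 was the highest KCASP1Tg array for the Cybb probe set 1436779_at (1193, gap 0.643, the others 210 to 390), Cyba (5734, gap 0.653, the others 1433 to 2318), Ncf1 (2454, gap 0.823, the others 339 to 482) and Rac2 (3682, gap 0.653, the others 355 to 799). It was also highest for the leading Cybb probe set and for Ncf4, but these did not exceed the critical value. The same array was the lowest for both Nox4 probe sets, 1451827_a_at (587, gap 0.744, the others 1967 to 2978) and 1419161_a_at (207, gap 0.715, the others 699 to 1137), and for Gclm (1372, gap 0.755, the others 1966 to 2211).

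WT 4 was the highest WT array for the Sod2 probe set 1417194_at (339, gap 0.866, the others 212 to 226), for Sod3 (4474, gap 0.916, the others 2102 to 2241) and for Keap1 (1125, gap 0.894, the others 840 to 867). WT 3 was the lowest WT array for Cat (9868, gap 0.933, the others 12295 to 12492).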

How the results depend on the processing

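Under all alternatives run, 0 probe sets of the 9 genes and 0 of the pathway genes were called in either direction. Cybb (0.81 to 1.65), Cyba (0.48 to 1.03), Ncf1 (0.63 to 1.47) and Ncf4 (0.71 to 1.47) stayed positive in each of them, and their smallest adjusted p, 0.0878, was that of Ncf1 without KCASP1Tg 4. The cause of the changes below was not tested, beyond the smaller number of arrays where some were left out.

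The number of all probe sets called higher, 18, became 204 with array weights, 0 with the replicate block, 0 with the exact Mann-Whitney test and 10 at an adjusted p under 0.01. It became 2 without KCASP1Tg 1, KCASP1Tg 2 and WT 4, and with each array left out in turn it was 10 to 61 (10 without KCASP1Tg 1, 61 without KCASP1Tg 4 and 39 without KCASP1Tg 6). The number called lower, 0, became 1 with a floor of 16, 2 with a pseudocount of 50, 2 without a filter, 3 with a signal filter of 200, 1 with quantile normalization, 3 with an intensity trend, 63 with array weights and 1 without KCASP1Tg 3 and WT 4. It was 0 to 8 with each array left out, 8 without KCASP1Tg 4 and 2 without KCASP1Tg 6, WT 2 or WT 4. Leaving out KCASP1Tg 4 with WT 4, or WT 1 with WT 3, was chosen after seeing the data. The first gave 57 higher and 5 lower, the second 0 higher. Requiring a signal of 100 on an array of each genotype, also chosen later, gave 5 higher.

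Differences near 0 changed sign. With the replicate number as a block Nox4 became -0.02, Sod1 -0.02 and Sod2 0.01, and with quantile normalization Sod1 became -0.07 and Cat -0.06. With array weights Sod2 was 0.37 and Sod3 0.16. Sod2 was 0.17 without the arrays with heart muscle transcripts, and without KCASP1Tg 3 and WT 4 it was 0.21 and Cat -0.04. Without KCASP1Tg 4 and WT 4, Sod2 was 0.50 and Sod3 0.31, and without WT 1 and WT 3, Nox4 was -0.16, Sod1 -0.05 and Cat -0.08. Other probe sets gave 0.00 for Sod1 and 0.01 for Sod2. With each array left out in turn the values were -0.03 to 0.43 for Nox4, -0.04 to 0.07 for Sod1, -0.23 to 0.31 for Sod2, -0.35 to 0.06 for Sod3 and -0.08 to 0.08 for Cat. The replicate numbers do not pair the mice: arrays of the same number had correlations of deviations of 0.11, -0.31, -0.43 and -0.33. None of the 4 WT arrays correlated best with the KCASP1Tg array of its own number, and the block changed no call for the 9 genes.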
